A study of Mus musculus with 24 samples.

Results

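Circular RNAs of Smad4, the shared SMAD of the TGF-beta pathway, and of Tgfbr2, its type II receptor, were examined in mouse cardiac fibroblasts after pressure overload. Every circular RNA in the deposited table whose junction ends matched exon edges of either gene on its own strand was taken, which gave 6 of 1717 circles: 5 of Smad4 and 1 of Tgfbr2. In transverse aortic constriction (TAC), a suture narrows the aorta and loads the left ventricle with pressure, and a sham operation leaves out the suture. Male C57BL/6J mice were operated on at 8 weeks of age, and fibroblast RNA was taken from digested hearts, depleted of ribosomal RNA and sequenced with strand. At 1 week there were 4 TAC and 4 sham libraries, at 4 weeks 4 TAC and 5 sham, and at 8 weeks 3 TAC and 4 sham. No sort on cell type is given in the sources used here. The labels do not state that each library is its own animal, so the spread between libraries may be partly technical.

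TGF-beta binds the type II receptor, a kinase in the cell membrane, which then recruits and phosphorylates the type I receptor. The type I receptor phosphorylates Smad2 and Smad3, and these join Smad4 and enter the nucleus to regulate transcription. In cardiac fibroblasts the pathway is known for driving collagen synthesis and the change to myofibroblasts. A circular RNA forms when the end of a downstream exon is spliced back to the start of an upstream exon, and sequencing detects it by reads across that join, the back-splice junction.

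The Tgfbr2 circle joined exon 3 back to exon 2 of a 7-exon transcript (gene ENSMUSG00000032440.13, minus strand, mm10 chr9:116129816-116131713). Both exons are coding. They hold codons 32 to 152 of 567, which lie in the extracellular, ligand-binding part of the receptor. Its sequence, from the GENCODE M21 transcript on the minus strand, is shown because the junction is what identifies the circle. In the first line the last 30 bases of exon 3 are in lower case and the first 30 bases of exon 2, which follow them only in the circle, are in capitals. The next lines give exon 2 of 169 bases (chr9:116131545-116131713) and exon 3 of 191 bases (chr9:116129816-116130006).
Tgfbr2 back-splice junction: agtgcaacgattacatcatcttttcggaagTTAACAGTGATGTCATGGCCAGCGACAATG
Tgfbr2 exon 2: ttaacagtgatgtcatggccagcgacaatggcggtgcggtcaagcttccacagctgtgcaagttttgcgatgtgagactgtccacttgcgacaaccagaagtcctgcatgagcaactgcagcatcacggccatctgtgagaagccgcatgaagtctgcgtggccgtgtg
Tgfbr2 exon 3: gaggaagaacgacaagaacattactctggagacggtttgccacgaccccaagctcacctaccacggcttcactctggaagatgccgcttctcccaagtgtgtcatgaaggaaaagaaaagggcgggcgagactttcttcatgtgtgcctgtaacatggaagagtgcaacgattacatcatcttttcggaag

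The Tgfbr2 circle is 360 bases long if both exons are kept whole and the intron between them is removed. That length is a multiple of 3, and the receptor's reading frame ran through the junction with 0 stop codons in 3 rounds of the circle. The intron before exon 2 is 43230 bases, longer than that of 89.4% of the circles with a matched transcript, against a median of 11047 bases over these circles. The intron after exon 3 is 19512 bases, against a median of 9861 bases. In another annotated transcript (ENSMUST00000061101.11) the same exons are exons 3 and 4 of 8, and the intron before them is 26557 bases.

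All 5 Smad4 circles matched one 12-exon transcript (ENSMUST00000025393.13; gene ENSMUSG00000024515.13, chr18:73639009-73703780, minus strand), and they are named below by their first and last exon. The 5–8 circle (chr18:73657195-73662867) is 498 bases long and holds codons 152 to 318 of 551, within the linker between the MH1 domain, which binds DNA, and the MH2 domain, which binds other SMADs. The 6–8 circle (chr18:73657195-73658898) is 288 bases of the same linker, codons 222 to 318. The 5–10 circle (chr18:73648885-73662867) is 851 bases and runs from the linker into the MH2 domain, codons 152 to 435. The 2–4 circle (chr18:73675161-73678039) is 582 bases, of which 128 precede the start codon, and holds codons 1 to 152 with the MH1 domain. The 2–8 circle (chr18:73657195-73678039) is 1080 bases and holds the start codon, the MH1 domain and the linker, codons 1 to 318.

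The 5 circles used 3 first exons and 3 last exons. Exon 8 was the last exon of 3 circles, exon 5 the first exon of 2 and exon 2 the first exon of 2. The 2–4 and 5–8 circles meet at the intron of 12293 bases between exons 4 and 5, and their exons together are those of the 2–8 circle. Smad4 introns beside the joins ran from 3759 bases before exon 6 to 25390 bases before exon 2. All of the Smad4 circles except 5–10 have a length that is a multiple of 3, and with Tgfbr2 this made 5 of the 6, against 35.5% of all 1657 circles with a matched transcript. In the 2 of these without bases before the start codon, 5–8 and 6–8, the Smad4 frame met 0 stop codons in 3 rounds. The count of 5 of the 6 does not rest on independent lengths. The 2–8 circle holds the exons of 2–4 and 5–8, and the exons of 6–8 lie inside 5–8. A junction read shows only the outer ends, so exons inside a circle are taken from the annotation.

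**Figure D1:**
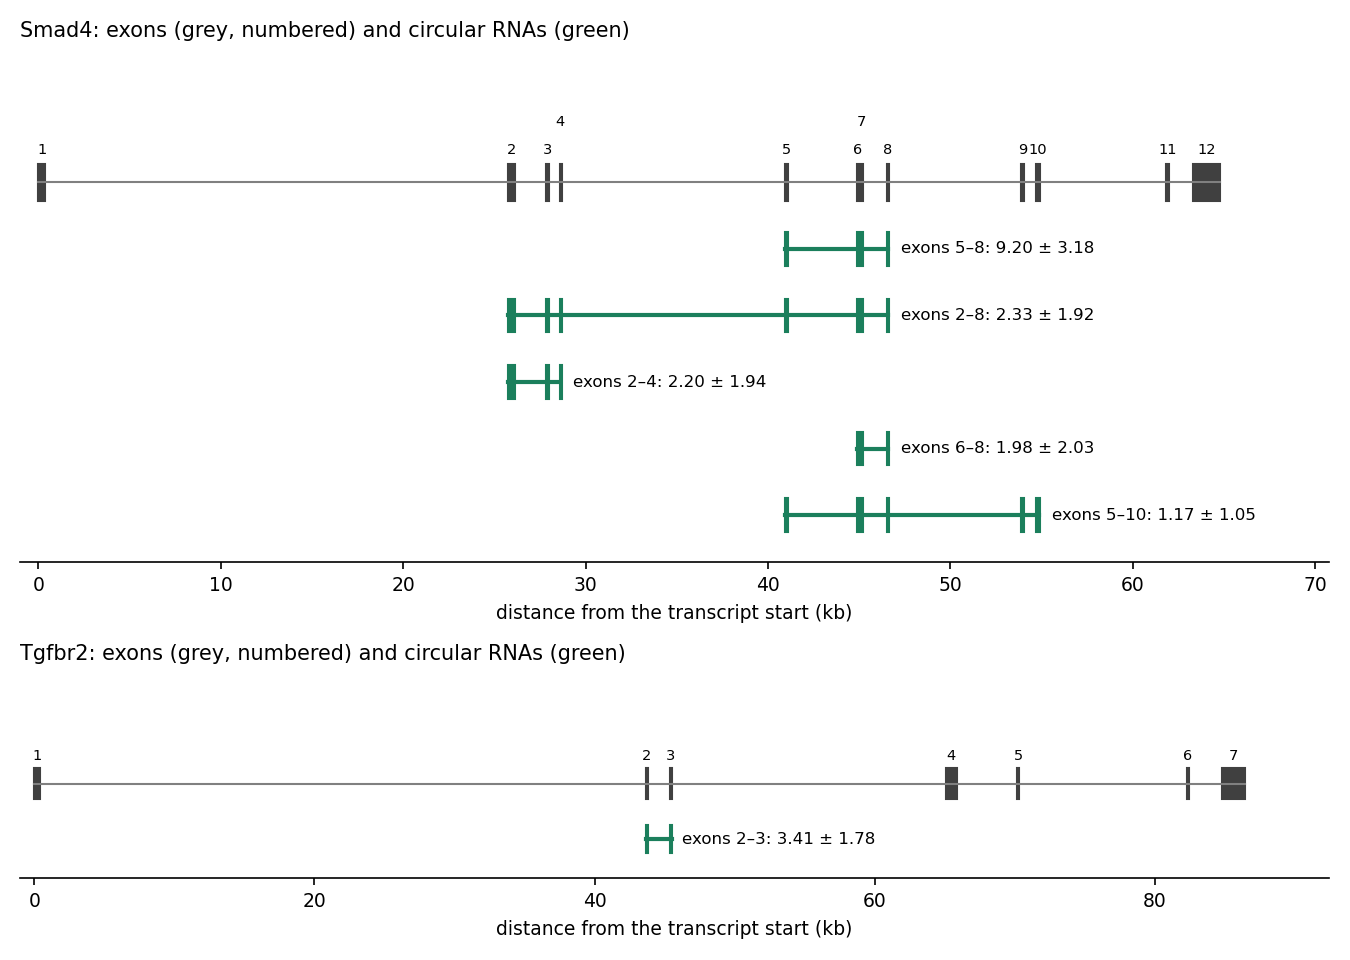
Exons of the Smad4 transcript of 12 exons and the Tgfbr2 transcript of 7 exons (grey) and the circular RNAs read from them (green), by distance from the transcript start in kb; each label gives a circle's mean ± SD over 24 libraries in normalized junction reads. Of the 5 Smad4 circles, 3 end at exon 8, and the 5–8 circle had the highest mean, 9.20.

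Values are normalized junction reads: the steps between the deposited values are those of whole reads divided by a factor per library, with 0.01 added, which is taken off here. Each circle is read at 1 junction, so a longer circle does not offer more junctions. Setting junctions side by side takes them to be read equally well, which was not tested. The Smad4 exons at these joins differ in length, down to 30 bases for exon 4 and 51 bases for exon 8. Libraries held 3595 to 9146 junction reads over all circles, with a median of 2 reads per circle and library, and 1 read was worth 0.642 to 1.57 normalized reads. A 0 therefore allows up to 3 reads, or 1.93 to 4.71 normalized reads depending on the library, counting error only. Of 20 fibroblast marker genes, 4 (Dcn, Lama2, Nav1 and Svep1) hosted a circle in the deposited table, and Col1a1, Pdgfra and Tcf21 hosted none there. Every circle of that table had at least 2 reads in at least 3 libraries, so a gene without one there may have scarcer circles. Circles were also read from 6 of 27 cardiomyocyte marker genes (Cacna1c, Pdlim5, Ryr2, Slc8a1, Sorbs2 and Ttn). Hosts were also 7 of 21 macrophage and leukocyte marker genes (Adgre1, F13a1, Ikzf1, Mertk, Mrc1, Nfkb1 and Runx1). Among 16 endothelial marker genes, 6 were hosts (Ets1, Fli1, Flt1, Pecam1, Rapgef4 and Tek). How far these genes are particular to their cell type was not tested.

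The 5–8 circle was the most abundant Smad4 circle, at 9.20 ± 3.18 normalized reads (SD, n = 24 libraries), and the only one read in all 24 libraries, with 222 reads in all. It ranked 103 among the 1717 circles, whose median level was 1.80 normalized reads. The 2–8 circle averaged 2.33 ± 1.92 with 57 reads in 20 libraries, the 2–4 circle 2.20 ± 1.94 with 49 reads in 21 libraries, and the 6–8 circle 1.98 ± 2.03 with 50 reads in 18 libraries. The 5–10 circle was the scarcest, at 1.17 ± 1.05 with 29 reads in 16 libraries. The Tgfbr2 circle averaged 3.41 ± 1.78 normalized reads, with 86 reads in 23 libraries, and ranked 408. Together the 5 Smad4 circles reached 16.9 ± 4.67 normalized reads, between 9.58 and 24.8 in single libraries. Smad4 was 1 of 17 host genes with 5 or more circles in the deposited table, of 1187 hosts.

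Exons 5 to 8 thus gave most Smad4 junction reads, 222 of 407. Averaged over libraries, the 5–8 circle held 54.9 ± 14.8% of them, the 2–8 circle 14.9 ± 13.9%, the 2–4 circle 12.6 ± 9.76%, the 6–8 circle 10.5 ± 9.67% and the 5–10 circle 7.01 ± 6.10% (SD, n = 24). The 5–8 circle had the largest share in 21 libraries. It tied with the 2–8 circle at 5 of 14 reads in TAC replicate 3 at 1 week, and 2 sham libraries had another circle on top. In sham replicate 1 at 8 weeks the 5–8 circle had 22.2% (2 of 9 reads, exact 95% interval 2.81 to 60.0%) and the 2–8 circle 55.6% (5 of 9 reads, 21.2 to 86.3%). In sham replicate 2 at 4 weeks the 5–8 circle had 27.3% (3 of 11 reads, 6.02 to 61.0%) and the 2–4 circle 36.4% (4 of 11 reads, 10.9 to 69.2%). With so few reads per library, these intervals overlap each other.

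By splice site, exon 8 closed 329 of the 407 reads (80.8%), exon 4 closed 49 (12.04%) and exon 10 closed 29 (7.13%). At the other end, exon 5 opened 251 reads (61.7%), exon 2 opened 106 (26.0%) and exon 6 opened 50 (12.3%). Of the circles that start at exon 5, the one closed at exon 8 had 222 reads and the one closed at exon 10 had 29. Of those that start at exon 2, closure at exon 8 and at exon 4 gave 57 and 49 reads.

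**Figure D2:**
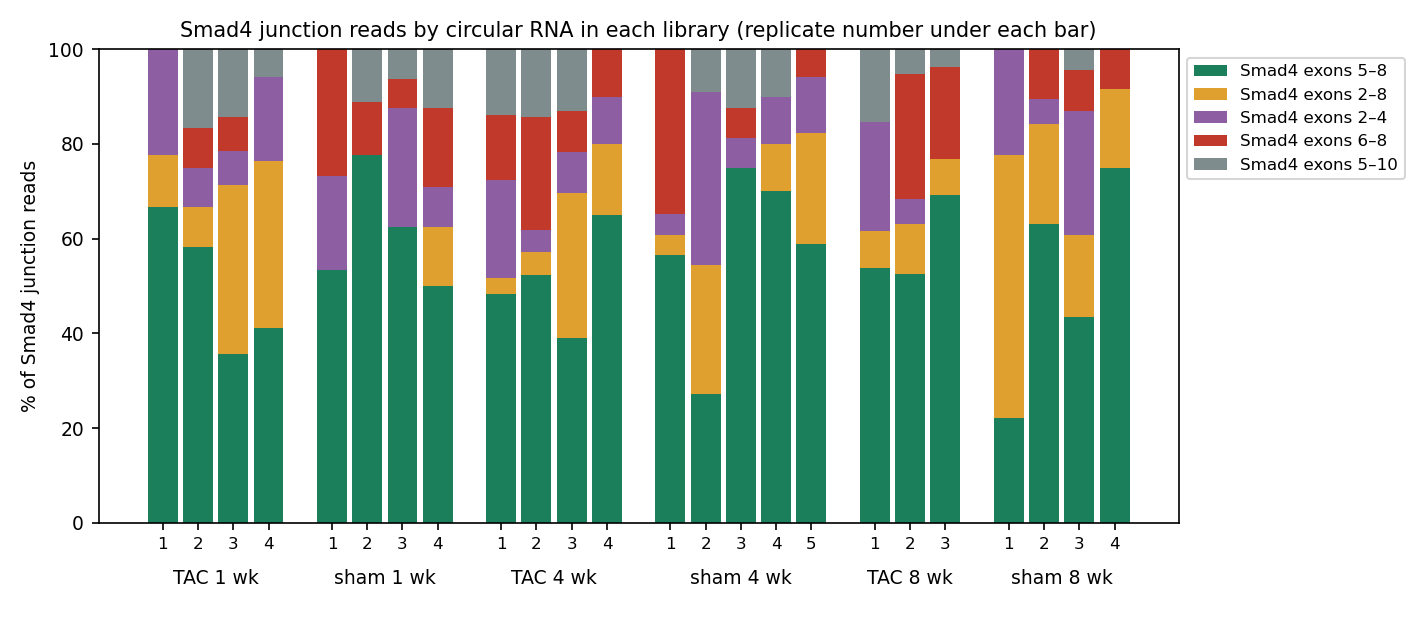
Share of Smad4 junction reads held by each of the 5 circles, in % (vertical axis), in each of the 24 libraries, grouped by operation and time; each bar is 1 library and rests on 9 to 29 reads. The 5–8 circle (green) is the largest piece in 21 bars.

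All 10 pairs of Smad4 circles were compared within libraries (two-sided sign-flip permutation test, 100000 resamples, p adjusted over the 10 pairs), and 6 pairs differed. The 95% intervals given with them are t intervals of the mean difference. The 5–8 circle exceeded each of the others, and every one of these 4 pairs had p = 1e-05, the smallest the permutations can give, and adjusted p = 2.5e-05. It was above the 2–8 circle by 6.87 normalized reads (95% interval 5.00 to 8.74), higher in 21 and lower in 1 of 24 libraries. Over the 2–4 circle the difference was 7.00 (5.44 to 8.56), higher in 22 and lower in 1 library. It was higher in 24 of 24 libraries than the 6–8 circle, by 7.22 (6.11 to 8.33), and than the 5–10 circle, by 8.03 (6.63 to 9.44).

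Below the 5–8 circle the order was less firm. The 2–8 circle was above the 5–10 circle by 1.16 normalized reads (95% interval 0.204 to 2.13, permutation adjusted p = 0.0354), in 14 of 24 libraries against 7 where it was lower. Likewise, the 2–4 circle was above the 5–10 circle by 1.04 (0.190 to 1.88, permutation adjusted p = 0.0354), in 13 libraries against 8. The first of these calls was lost when any 1 of 10 libraries was left out (TAC replicates 1, 3 and 4 at 1 week, TAC replicate 3 at 4 weeks, sham replicates 2 and 5 at 4 weeks and sham replicates 1 to 4 at 8 weeks; permutation adjusted p up to 0.0647). The second was lost without any 1 of 8 libraries (TAC replicates 1 and 4 and sham replicates 1 and 3 at 1 week, sham replicates 2 and 5 at 4 weeks and sham replicates 1 and 3 at 8 weeks; up to 0.0603). Both were lost within TAC libraries alone (permutation adjusted p = 0.421 and 0.648) and within sham libraries alone (0.0984 and 0.0608). With all 24 libraries, both were also lost on log2(normalized reads + 0.5) (permutation adjusted p = 0.101 and 0.0695) and on unscaled reads (0.0597 and 0.0693).

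The remaining 4 pairs did not pass. Between the 2–8 and 2–4 circles the difference was 0.130 normalized reads (95% interval -0.97 to 1.23) and between the 2–8 and 6–8 circles 0.355 (-1.003 to 1.71). The 2–4 and 6–8 circles differed by 0.225 (-1.05 to 1.5), and the 6–8 and 5–10 circles by 0.810 (-0.15 to 1.77). The permutation adjusted p of these pairs ran from 0.136 to 0.808, and their intervals leave room for differences of more than 1 normalized read.

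TAC was then compared with sham at each time, with limma on log2(normalized reads + 0.5) over all 24 libraries, p adjusted over all 1717 circles. None of the 6 circles was called at an adjusted p under 0.05 at 1, 4 or 8 weeks or on the average of the 3 times. Few circles were called at all: 1.46% of all circles were called at 1 week, 0.116% at 4 weeks, 0.0% at 8 weeks and 0.641% on the average. At an unadjusted p under 0.05, 2 of the 6 passed at 1 week, where 11.7% of all circles did, and 0 passed at 4 weeks (7.98% of all), at 8 weeks (6.06%) and on the average (9.9%). In bulk RNA, fewer cells of a type and less RNA per cell cannot be told apart.

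The 5–8 circle had 9.23, 6.71, 4.99 and 6.81 normalized reads in TAC libraries at 1 week, against 10.05, 8.73, 15.03 and 12.4 in sham libraries. All 4 TAC libraries lay below the sham mean, but the highest of them was above the lowest sham library. The means were 6.93 ± 1.74 in TAC and 11.6 ± 2.77 in sham, a log2 fold change of -0.70 ± 0.49 (SE; limma adjusted p = 0.603). At 4 weeks it had 11.8, 8.07, 6.54 and 8.35 in TAC libraries, against 12.1, 4.71, 10.4, 7.13 and 9.21 in sham libraries. These groups covered nearly the same range and had means of 8.70 ± 2.24 in TAC and 8.72 ± 2.89 in sham. At 8 weeks it had 8.38, 10.2 and 15.4 in TAC libraries, against 2.13, 13.2, 9.62 and 9.55 in sham libraries. Sham replicate 1 was the low one there, and the means were 11.3 ± 3.66 in TAC and 8.62 ± 4.65 in sham. Averaged over times, the log2 fold change of the 5–8 circle was -0.04 ± 0.28 (limma adjusted p = 0.985), with a 95% interval from 0.662-fold to 1.44-fold.

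Of the 6 circles, 2–8 had the lowest adjusted p, at 1 week. It had 1.54, 0.959, 4.99 and 5.84 normalized reads in TAC libraries at 1 week, against 0, 0, 0 and 3.10 in sham libraries, which together held 13 reads in TAC and 3 in sham. Every TAC library had reads of it, 3 of 4 sham libraries had none, and the groups overlapped only through sham replicate 4. The log2 fold change was 1.96 ± 0.77 (limma adjusted p = 0.194), and over the alternatives the adjusted p ran from 0.0579, without sham replicate 4, the one sham library with reads, to 0.475. At 4 weeks the groups overlapped, with means of 2.15 ± 2.03 in TAC and 2.07 ± 2.02 in sham; no member's groups were apart at that time, and 3.55% of all circles' were. At 8 weeks the order was the other way round, with 1.20, 2.04 and 1.71 in TAC libraries against 5.32, 4.40, 3.85 and 2.12 in sham libraries. These groups did not overlap after scaling, which held for 6.12% of all circles at that time, but in reads (1, 2 and 2 in TAC against 5, 4, 4 and 2 in sham) TAC replicates 2 and 3 tied with sham replicate 4. The log2 fold change was -1.0 ± 0.83 (limma adjusted p = 0.901).

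The 6–8 circle, whose exons lie inside the 5–8 circle, had 0, 0.959, 0.998 and 0 normalized reads in TAC libraries at 1 week, against 5.02, 1.25, 1.503 and 4.14 in sham libraries. These groups did not overlap after scaling, which held for 5.24% of all circles, but in reads (0, 1, 1 and 0 in TAC against 4, 1, 1 and 4 in sham) TAC replicates 2 and 3 tied with sham replicates 2 and 3. The log2 fold change was -1.84 ± 0.80 (limma adjusted p = 0.295). At 4 weeks the 6–8 circle averaged 2.45 ± 1.25 in TAC and 1.85 ± 3.17 in sham, where replicate 1 reached 7.47 and the other 4 libraries were under 1 normalized read. At 8 weeks it averaged 3.13 ± 2.74 in TAC and 1.30 ± 0.991 in sham, and the groups overlapped.

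The 5–10 circle, which reaches into the MH2 domain, averaged 1.22 ± 0.938 normalized reads in TAC and 1.46 ± 1.27 in sham at 1 week, and 1.94 ± 1.41 in TAC and 0.865 ± 0.833 in sham at 4 weeks. At 8 weeks it had 2.39, 1.02 and 0.857 in TAC libraries, against 0, 0, 0.962 and 0 in sham libraries, or 4 reads in TAC and 1 in sham. The groups overlapped by 1 sham library, and the log2 fold change was 1.47 ± 0.88 (limma adjusted p = 0.810). The 2–4 circle, which carries the MH1 domain, averaged 1.99 ± 1.17 in TAC and 2.96 ± 2.55 in sham at 1 week, 2.14 ± 1.98 in TAC and 2.19 ± 2.32 in sham at 4 weeks, and 1.54 ± 1.85 in TAC and 2.25 ± 2.50 in sham at 8 weeks. Its groups overlapped at each time, with limma adjusted p from 0.964 to 0.993 over the 3 times, and its sign turned when single libraries were left out. The estimates of scarce circles depend on the added 0.5: with 0.1 in its place they were 3.50 for the 2–8 circle and -2.99 for the 6–8 circle at 1 week and 2.94 for the 5–10 circle at 8 weeks, still not called.

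**Figure D3:**
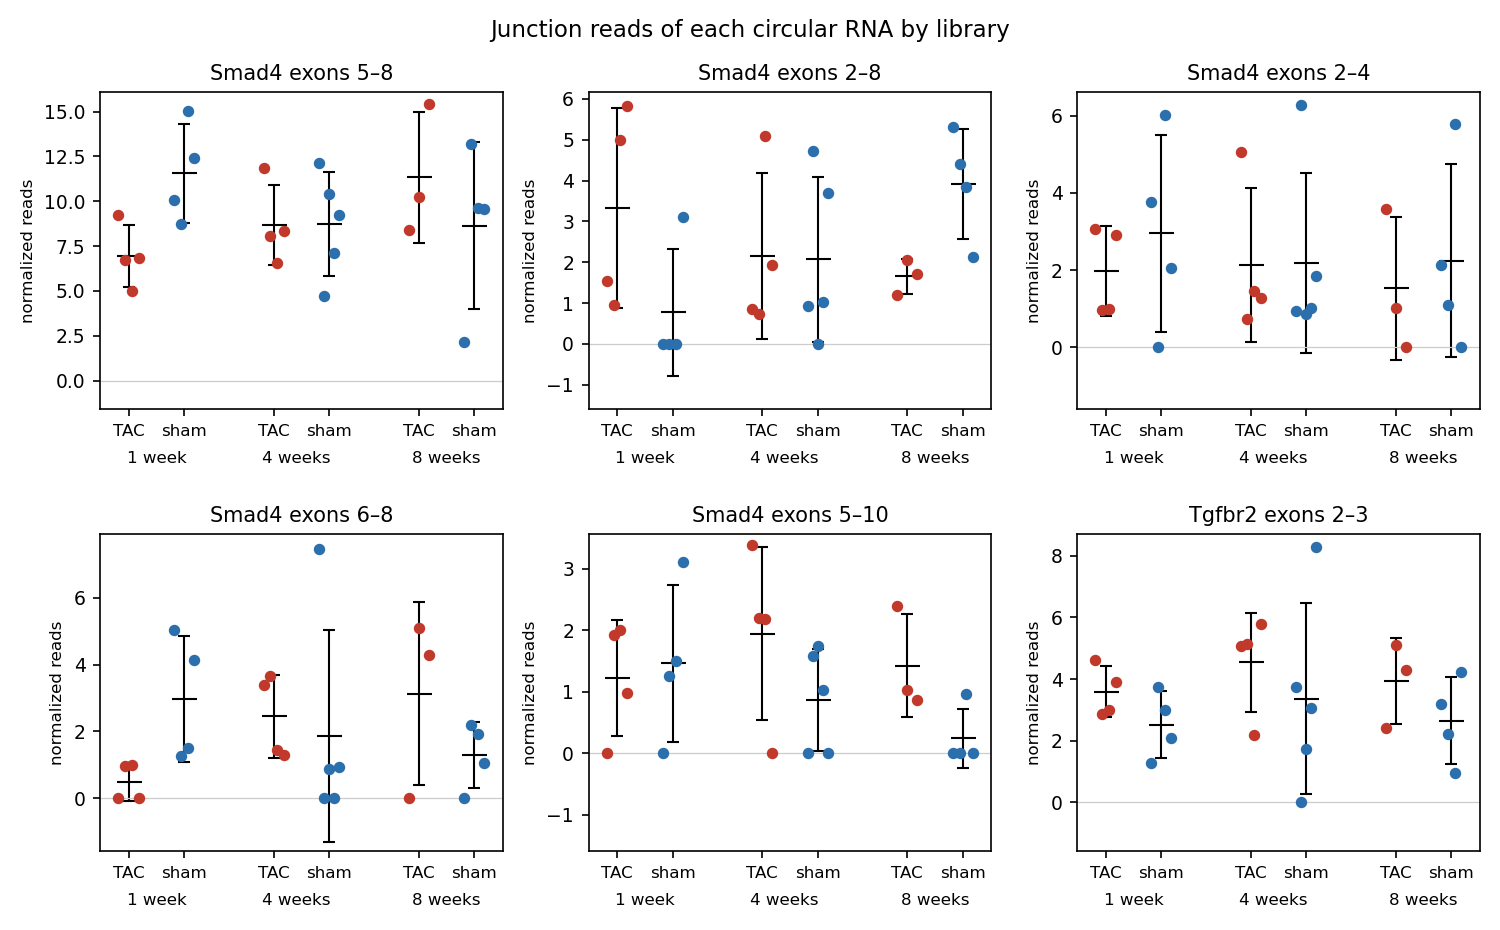
Normalized junction reads (vertical axes, linear, with a line at 0) of each of the 6 circles in every TAC (red) and sham (blue) library at 1, 4 and 8 weeks; horizontal ticks are group means and bars are ± 1 SD. TAC and sham points overlap in all panels and times except the 6–8 circle at 1 week and the 2–8 circle at 8 weeks, and in both of these exceptions some TAC and sham libraries had equal reads before scaling.

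The Tgfbr2 circle had 4.61, 2.88, 2.99 and 3.89 normalized reads in TAC libraries at 1 week, against 1.26, 3.74, 3.01 and 2.07 in sham libraries. At 4 weeks it had 5.07, 5.13, 2.18 and 5.78 in TAC libraries, against 3.74, 0, 1.74, 3.05 and 8.29 in sham libraries. The groups overlapped at both times, and at 4 weeks the highest and the lowest library were both sham. At 8 weeks it had 2.39, 5.11 and 4.29 in TAC libraries, against 3.19, 2.20, 0.962 and 4.24 in sham libraries, again with overlap.

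Its mean was higher in TAC than in sham at each time without passing the test. The means were 3.59 ± 0.817 in TAC and 2.52 ± 1.08 in sham at 1 week, 4.54 ± 1.61 in TAC and 3.36 ± 3.10 in sham at 4 weeks, and 3.93 ± 1.39 in TAC and 2.65 ± 1.40 in sham at 8 weeks. The log2 fold changes were 0.50 ± 0.67 at 1 week, 0.82 ± 0.64 at 4 weeks and 0.57 ± 0.72 at 8 weeks (limma adjusted p = 0.840, 0.852 and 0.942 in the order of the times). Without 1 library they ran from 0.26 to 0.68 at 1 week, from 0.21 (without sham replicate 2) to 1.24 at 4 weeks and from 0.24 to 0.85 at 8 weeks. Averaged over times it was 0.63 ± 0.39 (limma adjusted p = 0.599), with a 95% interval from 0.906-fold to 2.63-fold. The TAC libraries above the sham mean of their time numbered 4 of 4, 3 of 4 and 2 of 3. How many of all circles were higher in TAC at each time was not counted. Their median log2 fold change was also above 0 at each time (0.04, 0.12 and 0.03).

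**Figure D4:**
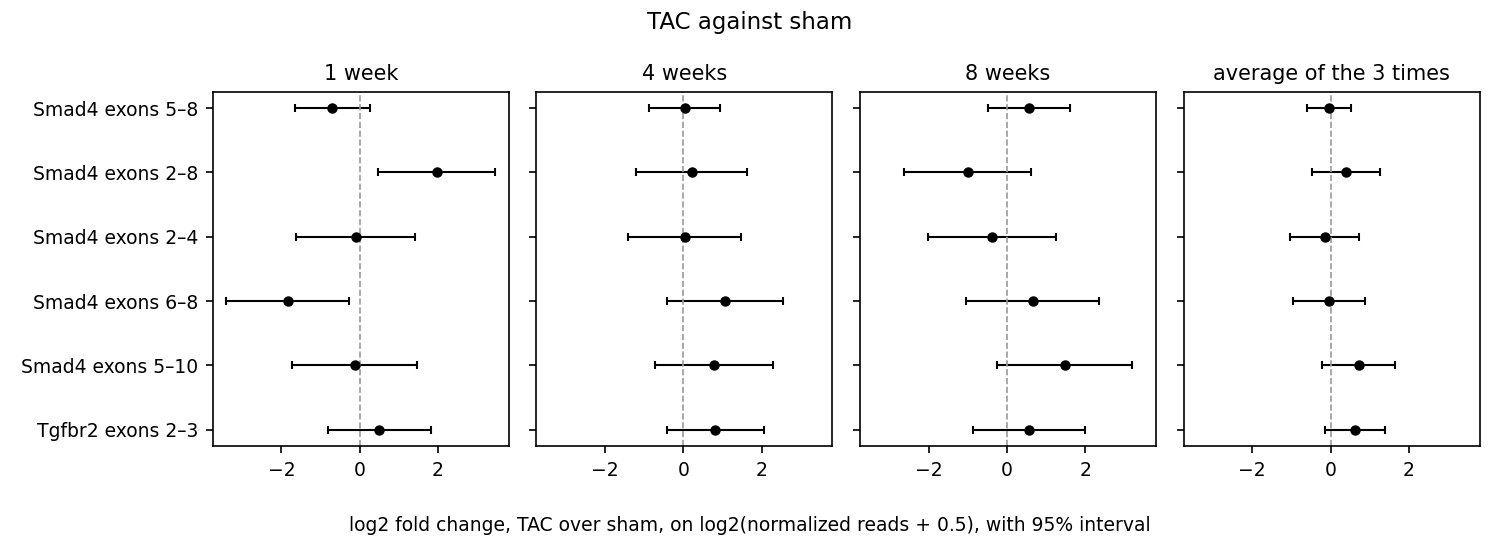
Log2 fold change of each circle, TAC over sham, on log2(normalized reads + 0.5), at 1, 4 and 8 weeks and on their average; points are limma estimates and bars their 95% intervals, not adjusted for the number of circles. The intervals cross 0 except for the 2–8 circle (1.96) and the 6–8 circle (-1.84) at 1 week, which had adjusted p of 0.194 and 0.295.

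Over the 6 circles the median log2 fold change was -0.12 at 1 week, 0.50 at 4 weeks, 0.56 at 8 weeks and 0.18 on the average, beside 0.04, 0.12, 0.03 and 0.06 for all circles in the same order. Positive estimates numbered 2 of 6 at 1 week, 6 of 6 at 4 weeks, 4 of 6 at 8 weeks and 3 of 6 on the average. At 4 weeks the estimates of the 5–8 and 2–4 circles were both 0.03, their TAC means lay slightly below their sham means, and both estimates were negative under limma-voom, where the median of all circles was -0.03. The 5 Smad4 circles summed to 14.0 ± 2.06 normalized reads in TAC and 19.7 ± 6.26 in sham at 1 week, 17.4 ± 5.02 in TAC and 15.7 ± 4.18 in sham at 4 weeks, and 19.1 ± 3.37 in TAC and 16.3 ± 6.14 in sham at 8 weeks. The share of the 5–8 circle in Smad4 reads was 50.5 ± 14.5% in TAC and 60.9 ± 12.4% in sham at 1 week, 51.2 ± 10.7% in TAC and 57.5 ± 18.6% in sham at 4 weeks, and 58.6 ± 9.25% in TAC and 51.0 ± 23.2% in sham at 8 weeks, and the groups overlapped at each time. The share of the 2–8 circle was 22.6 ± 14.9% in TAC and 3.13 ± 6.25% in sham at 1 week, 13.4 ± 12.5% in TAC and 13.03 ± 11.9% in sham at 4 weeks, and 8.64 ± 1.64% in TAC and 27.7 ± 18.7% in sham at 8 weeks. The share of the 2–8 circle did not overlap at 8 weeks, with 7.69 to 10.5% in TAC and 16.7 to 55.6% in sham. The nearest libraries were TAC replicate 2, with 2 of 19 reads (exact 95% interval 1.30 to 33.1%), and sham replicate 4, with 2 of 12 (2.09 to 48.4%). These intervals overlap. The shares were not tested, and no shares of other host genes were computed beside them.

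Marker circles of cardiomyocytes had lower sums in TAC libraries, without overlap at 4 and 8 weeks. Those of fibroblasts had higher sums, without overlap at the same times. Neither difference was tested. Of single circles, 3.55% had groups apart at 4 weeks and 6.12% at 8 weeks, but no such share was computed for sums. The direction of each marker circle was not examined, so a few abundant circles may carry a sum. Summed over 14 circles, the cardiomyocyte markers ranged from 33.5 to 50.7 normalized reads in TAC and 48.6 to 131 in sham at 1 week, from 32.0 to 47.7 in TAC and 64.4 to 126 in sham at 4 weeks, and from 59.1 to 64.6 in TAC and 65.4 to 133 in sham at 8 weeks. The 7 fibroblast marker circles ranged from 14.6 to 29.0 in TAC and 4.51 to 23.9 in sham at 1 week, from 19.6 to 25.7 in TAC and 14.1 to 18.2 in sham at 4 weeks, and from 17.1 to 25.1 in TAC and 7.45 to 16.5 in sham at 8 weeks. The 22 circles of macrophage and leukocyte marker genes summed to 116 to 186 in TAC and 102 to 182 in sham at 1 week. The 10 circles of endothelial marker genes summed to 14.0 to 27.2 in TAC and 21.04 to 33.7 in sham at that time. Both sums overlapped between the groups at all 3 times. The cardiomyocyte genes Myh6, Myh7 and Tnnt2 had no circle in the deposited table. The part of these shifts in the Smad4 and Tgfbr2 values was not tested. TAC libraries at 4 weeks were also the deepest, with 7980 ± 940 junction reads in TAC against 5666 ± 1188 in sham.

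Differences of the TAC effect between times called none of the 6 circles, and none of all 1717 (0.0% called in each of the 3 contrasts). At an unadjusted p under 0.05 the 6–8 circle passed for 4 weeks minus 1 week, with a log2 difference of 2.90 ± 1.10 (limma adjusted p = 0.560), where 8.04% of all circles passed. It also passed for 8 weeks minus 1 week, with 2.50 ± 1.18 (limma adjusted p = 0.522). The 2–8 circle passed for 8 weeks minus 1 week with -2.96 ± 1.13 (limma adjusted p = 0.301), where 8.62% of all circles passed. For 8 weeks minus 4 weeks 0 of the 6 passed, and 6.35% of all circles did. These contrasts share the 1-week libraries with the comparisons above, and those held 2 reads of the 6–8 circle in TAC and 3 of the 2–8 circle in sham.

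Within an operation, no Smad4 or Tgfbr2 circle was called between times. The background was 0.0% for each TAC contrast, 0.116% for sham at 8 weeks against 1 week and 0.0% for the other sham contrasts. In sham libraries the 2–8 circle was at 3.92 ± 1.35 normalized reads at 8 weeks and 0.776 ± 1.55 at 1 week, a log2 fold change of 2.37 ± 0.77 (limma adjusted p = 0.249), and 7.51% of all circles had an unadjusted p under 0.05 there. In TAC libraries the 6–8 circle was at 2.45 ± 1.25 at 4 weeks and 0.489 ± 0.565 at 1 week, with 1.67 ± 0.80 (limma adjusted p = 0.875), where 5.13% of all circles passed unadjusted. In the other contrasts within an operation 0 of the 6 passed unadjusted, where all circles gave 7.51% (TAC, 8 weeks against 1 week), 4.14% (TAC, 8 against 4 weeks), 7.57% (sham, 4 weeks against 1 week) and 6.93% (sham, 8 against 4 weeks).

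The spread of each circle was set against counting noise, and differences between members were not tested. The ratio of its chi-square within groups to 18 degrees of freedom, which is near 1 for counting noise alone, was 0.952 for the 5–8 circle, 0.907 for the 5–10 circle and 0.941 for the Tgfbr2 circle. It was 1.63 for the 2–8 circle, 1.82 for the 6–8 circle and 1.99 for the 2–4 circle, and the median over all circles was 1.24. With few reads per library, as for the 5–10 circle with 29 reads in all, the ratio is a rough measure.

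Among the Smad4 circles, levels over the 24 libraries ran together for 5–8 and 6–8 (Spearman rho 0.65) and in opposite directions for 5–8 and 2–8 (rho -0.44), and the other pairs of members had rho between -0.33 and 0.20. All of these points share their libraries and library factors. Of the 269 other circles with a mean of at least 5 normalized reads, those whose levels were most like the 5–8 circle came from Ablim3 (exons 4 to 8, rho 0.65), Rev1 (exons 2 to 3, 0.59) and Arhgap26 (exons 9 to 11, 0.51). Those most like the Tgfbr2 circle, of 270, came from Vav3 (exons 16 to 19, 0.67), Man2a1 (exons 2 to 3, 0.55) and Cnot2 (exons 2 to 4, 0.54). The 99th percentile of rho was 0.51 for the 5–8 circle and 0.54 for the Tgfbr2 circle, a level that about 3 of so many circles pass by construction.

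Elsewhere in the TGF-beta family, 22 circles came from 14 other genes, and none was called in TAC against sham at any time. Of 29 ligand and activation genes, Fbn1, Ltbp1 and Ltbp4, which hold latent TGF-beta in the matrix, hosted circles, and of 14 receptor genes Acvr2a and Bmpr2 did beside Tgfbr2. Smad1 and Smad5, the SMADs of the BMP branch, were the hosts beside Smad4 among 8 SMAD genes, and 7 of 31 partner and regulator genes were hosts. The most abundant was Smad1 exon 2, with 7.59 normalized reads, below the Smad4 5–8 circle at 9.20. It was followed by Acvr2a exons 2 to 4, an activin receptor, with 6.49, Ltbp1 exons 2 to 3 with 4.68, Ltbp4 exons 26 to 27 with 3.64 and Crebbp exons 4 to 5, from a histone acetyltransferase that SMADs recruit, with 2.80.

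Of these 5, Acvr2a had the largest TAC against sham estimate at 8 weeks, a log2 fold change of 1.25 ± 0.63 (limma adjusted p = 0.810), with 9.12 ± 1.83 normalized reads in TAC and 6.60 ± 6.80 in sham. Its libraries ran from 7.15 to 10.8 in TAC and from 0 to 16.0 in sham. The groups overlapped, and both the highest and the lowest library were sham. At an unadjusted p under 0.05, 2 of the 22 were higher and 0 lower in TAC at 1 week, 0 and 0 at 4 weeks, 1 higher and 1 lower at 8 weeks, and 1 higher and 2 lower on the average, beside 11.7%, 7.98%, 6.06% and 9.9% of all circles in the same order, either direction. Both that were higher at 1 week came from 1 gene and share a junction end. The median log2 fold change of the 22 was 0.17 at 1 week, 0.12 at 4 weeks, -0.11 at 8 weeks and 0.04 on the average. At 8 weeks their estimates ran from -2.80 to 1.54, both ends from scarcer circles than the 5 named.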

How the data were processed

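Total RNA libraries, depleted of ribosomal RNA and stranded per the labels' protocols, were read in paired-end mode. FastQC, Trimmomatic, STAR and mm10 stand in the submitters' processing notes; the table's name gives DCC as the circle caller, and its settings and the authors' normalization are not stated in what was used here. The authors deposited a signal of back-splice junction reads per circle and library: with 0.01 taken off, 100% of values were whole multiples of 1 step per library (tolerance 0.001 read). All per-sample columns were used. Within groups, 0 of 37 library pairs were identical, and all differed beyond counting noise (largest chi-square p = 0.0109).

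Junctions were matched to exons of GENCODE M21 (same build) with Python 3.11.15, pandas 2.3.3 and numpy 2.4.6. limma 3.58.1 (R 4.3.3) with an intensity trend was fitted to log2(normalized reads + 0.5) in 6 groups, with Benjamini-Hochberg adjustment over 1717 circles and calls at 0.05. A filter of 2 reads in 3 libraries removed no circle. Pairs of Smad4 circles were compared with sign-flip permutations. A count test had been planned in case the table held raw reads; it does not.

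Named were every Smad4 and Tgfbr2 circle, the 5 most abundant other TGF-beta family circles and any called, and the 3 circles most like the top Smad4 and Tgfbr2 circles. The members, lists and tests were chosen with earlier results of these data known. The p-values reflect only the spread among these libraries. Alternatives were other scalings, pseudocounts, filters, voom, single times, a replicate block and leaving out each library.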

Additional observations from a re-analysis of the deposited data

Results flagged for a closer look

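In 5 of 30 groups of 4 or 5 libraries, a single library stood apart from the rest of its group by Dixon's gap ratio, the gap to the nearest library over the group's range, at its 95% critical value; chance gives such a flag in about 1 of 20 groups of normally distributed values, a rate that does not carry over to groups of so few reads, where reads in 1 library alone give a ratio of 1. All 5 concern Smad4 circles with few reads. The 2–8 circle in sham at 1 week had a ratio of 1, since replicate 4 had 3.10 normalized reads and the others none. The 2–4 circle in TAC at 4 weeks had a ratio of 0.834, with 5.07 in replicate 1, and in sham at 4 weeks a ratio of 0.820, with 6.28 in replicate 2. For the 6–8 circle in sham at 4 weeks the ratio was 0.877, with 7.47 in replicate 1. The 5–10 circle in sham at 8 weeks had a ratio of 1, from the single read of replicate 3 at 0.962. No group was marked for the 5–8 circle or the Tgfbr2 circle.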

How the results depend on the processing

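The count of Smad4 and Tgfbr2 circles called stayed at 0 in each of the 7 families of comparison, under each alternative run and without any 1 library. The lowest limma adjusted p over 2431 tests of these circles was 0.0579. These tests include the run without a filter, which repeated the main fit because the filter removed no circle. In the limma fit 2 of the 6 had an unadjusted p under 0.05 at 1 week. The count of differing Smad4 pairs was 6, and 4 on the log2 scale, on unscaled reads, within TAC and within sham, and 4 to 6 without 1 library. The 4 pairs with the 5–8 circle passed in every one of these settings (largest adjusted p 0.00517). No TAC against sham estimate of the 6 circles was called, so every change of sign given here concerns an uncalled estimate. The cause of these changes was not tested. With limma-voom the 4-week log2 fold change was -0.0949 for the 5–8 circle and -0.0812 for the 2–4 circle, where the median of all circles moved to -0.03. On the average, TMM scaling gave 0.0190 for the 5–8 circle and 0.0108 for the 6–8 circle. A pseudocount of 0.1 gave 0.28 for the 2–4 circle at 1 week. Without 1 library, the 5–8 circle ran from -0.16 to 0.16 at 4 weeks and from -0.21 to 0.0557 on the average, and the 2–8 circle from -0.27 to 0.58 at 4 weeks. The 2–4 circle ran from -0.87 to 0.37 at 1 week, -0.41 to 0.44 at 4 weeks, -1.13 to 0.39 at 8 weeks and -0.41 to 0.11 on the average. The 6–8 circle ran from -0.24 to 0.34 on the average and the 5–10 circle from -0.68 to 0.39 at 1 week. Same-numbered TAC and sham libraries were compared by their deviations from their group means, numbered as in the sample titles (some sham column names at 4 and 8 weeks carry other numbers). Their r ran from -0.08 to 0.14, with 1 of 11 pairs over 0.1. At 1 week r was 0.14, 0.02, 0.05 and 0.08 for replicates 1 to 4, and differently numbered libraries ran from -0.12 to 0.10. Whether libraries were paired was not tested. With the replicate block 0 of the 6 circles were called, with 0.0176 for the 5–8 circle on the average. The planned count models were not run, because the deposited values are not counts; limma-voom and the unscaled pair test used recovered reads. Only the 5–8 circle passed a filter of 5 normalized reads on the mean, and with a median of 2 reads per circle and library the intervals of the other 5 are wide.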
